A study of Homo sapiens with 6 samples.

Results

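Keratins are the proteins of the epithelial intermediate filaments, and 7 keratin genes expressed in the breast cancer line MDA-MB-231 are described here: KRT7, KRT8, KRT18, KRT19, KRT80, KRT81 and KRT86. They were taken by gene symbol from a table of 58735 genes, in which all 7 had 1 row each. They were chosen by their FPKM levels at 0 Gy and their changes after 10 Gy in these same libraries, so these values are given as a description and without a test. MDA-MB-231 is an established human line from a breast adenocarcinoma, classed as basal-like. RNA was measured by polyA sequencing in 3 libraries of cells at 0 Gy and in 3 libraries of cells collected 24 h after 10 Gy of gamma rays from a caesium source. The labels name the libraries of both groups SCR and give the genotype as WT. The study describes MDA-MB-231 cells named shSCR as carrying a non-targeting shRNA. Both groups, the controls too, are taken from the name to carry it, which the labels do not state. No label says whether the 3 libraries of a dose came from separate cultures, so the p-values given for other genes cover the spread between these libraries only, which may be technical.

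Keratin filaments are built from pairs of a type I (acidic) and a type II (basic) chain, and neither type forms filaments alone. KRT8 (type II) and KRT18 (type I) are the first pair made by simple epithelia, and KRT7 (type II) and KRT19 (type I) join them in ducts such as those of the breast. KRT80 is a type II keratin of many epithelia, and KRT81 and KRT86 are type II keratins of the hair shaft. Of the 7 genes, 2 are therefore type I and 5 are type II.

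Before the levels are read, the letters of 2 of these genes matter, since KRT81 and KRT86 are near-copies. Their coding sequences (GENCODE 29, the annotation of the table's GRCh38 identifiers) were identical at 94.2% of 1454 aligned bases. Of 1239 windows of 90 coding bases aligned without gaps, 564 were identical. The first such stretch, at coding bases 61 to 150 of both, is shown because a fragment from it carries no letter that tells the genes apart.
KRT81: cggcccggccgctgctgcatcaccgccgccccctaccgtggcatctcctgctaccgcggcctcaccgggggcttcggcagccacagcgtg
KRT86: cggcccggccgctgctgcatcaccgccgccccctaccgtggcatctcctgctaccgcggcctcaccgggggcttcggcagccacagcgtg
The least alike window, at coding bases 1237 to 1326, is shown beside it because a fragment from here can be placed. Capitals mark the 19 bases at which the genes differ.
KRT81: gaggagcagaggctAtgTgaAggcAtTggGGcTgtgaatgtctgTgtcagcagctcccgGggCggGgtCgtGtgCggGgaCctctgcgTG
KRT86: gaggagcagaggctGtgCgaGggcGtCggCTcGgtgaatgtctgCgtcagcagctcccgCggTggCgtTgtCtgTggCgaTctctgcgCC

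The other pairs were less alike. KRT7 and KRT8, both type II, shared 76.1% of 1350 aligned coding bases, and KRT18 and KRT19, both type I, shared 66.6% of 1154. KRT8 and its partner KRT18 shared 64.7% of 1201. What the family has in common is best seen at the end of the central rod, where keratins carry a conserved helix termination motif. A search of coding sequences for the codons of threonine, tyrosine and arginine, any codon, and then leucine, leucine and glutamate found 1 match in 6 of the 7 genes and none in KRT80. The match was present in 46 of the 55 keratin genes, and in 57 (0.29%) of all 19669 protein-coding genes. The 30 bases of each match are shown for the comparison, and capitals mark bases that differ from KRT8.
KRT7: acctacCgCaagctgctggagggcgaggag
KRT8: acctacaggaagctgctggagggcgaggag
KRT18: acctacCgCCGCctgctggaAgATgGCgag
KRT19: acctacCgCaGCctgctCgagggACaggaA
KRT81: acctacaggCGCctgctggagggcgaggag
KRT86: acctacaggCGCctgctggagggcgaggag
KRT7, KRT81 and KRT86, type II like KRT8, differed from it at 2, 3 and 3 bases, and the type I genes KRT18 and KRT19 at 10 and 8.

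In the table, 6 of the 7 genes stood in the keratin cluster of chromosome 12 and KRT19 stood in that of chromosome 17 (GRCh38). KRT80 (ENSG00000167767) lay at chr12:52168996-52192000 on the minus strand, and KRT7 (ENSG00000135480) at chr12:52232520-52252186 on the plus strand. KRT86 (ENSG00000170442) lay at chr12:52249300-52309163 on the plus strand, and its span held the whole of KRT81 (ENSG00000205426, chr12:52285913-52291534), which is on the minus strand. At the far end of the cluster, KRT8 (ENSG00000170421, chr12:52897187-52949954, minus strand) and KRT18 (ENSG00000111057, chr12:52948871-52952901, plus strand) overlapped by 1084 bases, 525 of them exonic in both. KRT19 (ENSG00000171345) lay at chr17:41523617-41528308 on the minus strand. Whether the authors' counting used the strand of a read is not given in the sources used here, so reads from the shared exonic bases of KRT8 and KRT18 cannot be told apart.

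The values are FPKM, in which fragments are divided by the length of the gene and by the depth of the library. A value times the gene's length and the library's depth gave whole reads for 100% of values above 0. The recovered reads summed to between 15643641 and 28861781 per library, and the 7 keratins held between 0.28% and 0.322% of them. The depth implied by the values was 0.9725 to 0.991 times the recovered reads at 0 Gy and 1.0278 to 1.0389 times at 10 Gy. The divisor was thus not the sum of recovered reads, and its offset went with the dose and enters all FPKM changes below. Libraries of the same dose correlated at r = 0.992 to 0.9942 over log2(FPKM + 1) and libraries of different doses at 0.9844 to 0.9886. Within the 0 Gy group, replicate 1 stood further from replicates 2 and 3 (mean chi-square per gene 5.71 and 6.25) than these did from each other (2.24), so keratin values that rest on it are also given without it. These are bulk libraries, in which fewer cells with a transcript and less of it per cell cannot be told apart.

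KRT81, a hair keratin, had the highest level of the 7 genes in each of the 6 libraries. It read 608.7, 479.2 and 479.9 FPKM at 0 Gy and 411.9, 443.2 and 442.1 FPKM at 10 Gy. Replicate 1 stood 1.27-fold above the lowest 0 Gy library, and every 10 Gy library lay below every 0 Gy library. The mean was 522.6 ± 74.6 FPKM (SD, n = 3) at 0 Gy, which put KRT81 at rank 32 of the nuclear protein-coding genes. This rank rests on the gene lengths behind the FPKM, and none was computed on another length. Each value rested on 14209 to 25041 reads.

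The simple epithelial keratins followed well below it. KRT7 read 130.6, 117.9 and 113.0 FPKM at 0 Gy. KRT18, the type I partner of KRT8, read 116.6, 108.1 and 103.2 FPKM. KRT8 itself read 102.4, 92.5 and 90.003 FPKM. In all 3 of these genes replicate 1 was the highest 0 Gy library. KRT19, the other type I keratin of the set, read 96.7, 86.8 and 89.2 FPKM.

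KRT80 and the near-copy of KRT81 closed the order. KRT80 read 58.0, 59.0 and 54.3 FPKM at 0 Gy, the narrowest spread of the 7 genes relative to its mean. KRT86 read 18.7, 15.6 and 16.4 FPKM, from 573 to 1185 reads per library over both doses. Of neighbours in the order of means, KRT7 and KRT18 overlapped in range at 0 Gy, as did KRT8 and KRT19. KRT18 and KRT8 came close without overlap, and the other neighbours were apart. The plot of levels by library shows this order.

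**Figure D1:**
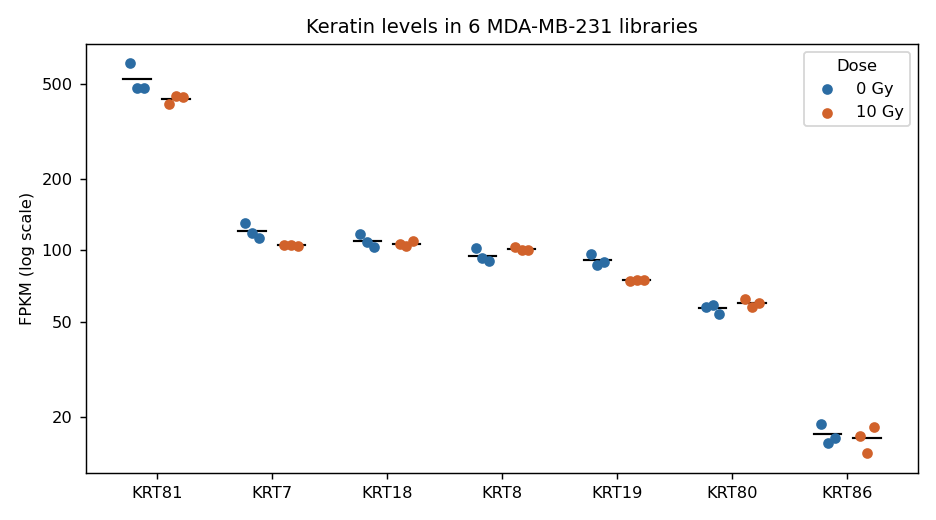
Levels of the 7 keratins (FPKM, log axis) in the 3 libraries at 0 Gy (blue) and the 3 at 10 Gy (orange), with black lines at the means, ordered by the 0 Gy mean. KRT81 lies highest at 411.9 to 608.7 FPKM, 5 genes lie between 54.3 and 130.6 FPKM, and KRT86 lies lowest at 14.1 to 18.7 FPKM.

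The order of levels depended on which length a gene is given. The table's length equals the union of all annotated exons for the 7 genes, and for several of them this exceeds the main coding transcript. How much of each transcript these cells make was not measured. For KRT8 this length was 6881 bases over 17 transcripts, against 1882 bases in the main coding transcript (9 exons), a ratio of 3.66. For KRT7 the ratio was 2.33, for KRT18 2.06 and for KRT19 1.68, while KRT80 and KRT86 stood at 1.13 and 1.15 and KRT81 at 1.

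Per kilobase of the main transcript, an alternative chosen after seeing the data, KRT8 moved from the fourth place to the second at 347.2 ± 24.0 (SD, n = 3), in the units of FPKM. KRT81 stayed first at 522.6 ± 74.6. KRT7 stood at 281.2 ± 21.2, KRT18 at 225.1 ± 13.96 and KRT19 at 152.8 ± 8.69. The gap between KRT81 and the simple epithelial keratins was thus narrower on this scale, which assumes that all reads come from the main transcript.

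**Figure D2:**
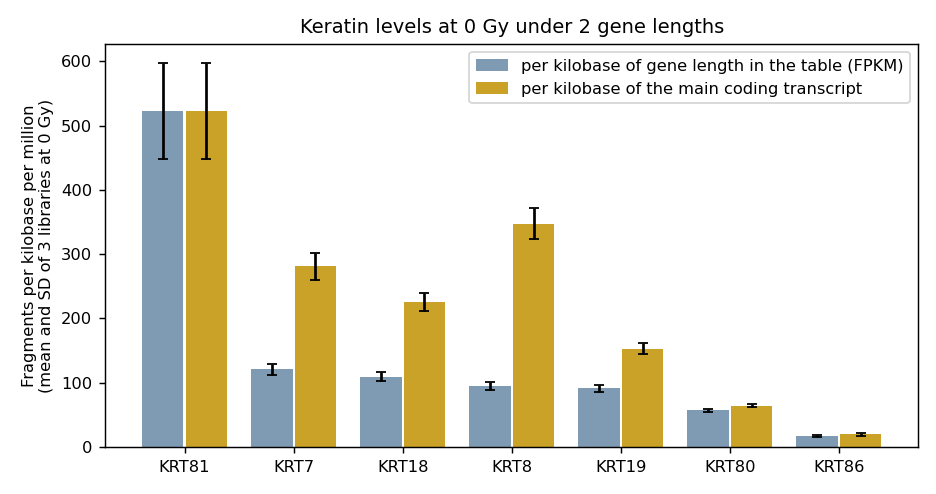
Mean level of each keratin at 0 Gy (bars, with SD over 3 libraries as error bars) per kilobase of the gene length in the table and per kilobase of the main coding transcript. KRT8 goes from 94.97 to 347.2, while KRT81 is 522.6 on both scales.

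The reads of some members could also belong to a neighbour. A window of 150 bases, about the length of a read, of the KRT81 main transcript occurred in a transcript of KRT86 at 456 of 1780 positions (25.6%), and the same 456 were 23.5% of the 1942 windows of KRT86. For KRT18 155 of 1413 windows (11.0%) occurred in a KRT8 transcript, and for KRT7 77 of 1605 (4.8%) in its antisense gene KRT7-AS. KRT8, KRT19 and KRT80 shared none. How the authors assigned reads that match 2 genes is not given in the sources used here. The levels of KRT81 and KRT86 are therefore uncertain. KRT81 held 14209 to 25041 reads per library and KRT86 573 to 1185. A small part of the KRT81 reads, if placed on KRT86, could thus make up the whole KRT86 level. The share of its windows that are shared sets no limit to this. The KRT86 level, its change and its ratio to KRT81 all carry this uncertainty, which was not tested. KRT81 stood 30.9 ± 1.65 times above KRT86 at 0 Gy (SD, n = 3).

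The label basal-like was checked against the keratins that define basal mammary cells, and these were nearly absent. KRT5 was at 0 in all 6 libraries, as were KRT6A and KRT6C, and KRT6B was at 0 in the 0 Gy libraries and at no more than 0.0202 FPKM at 10 Gy. KRT14, the partner of KRT5, had at most 2 reads in any library. KRT17 had a mean of 0.0883 FPKM at 0 Gy and 0.211 FPKM at 10 Gy, from 2 to 20 reads per library. Of 12 basal markers, these keratins included, 4 reached a mean of 1 FPKM at 0 Gy, among them CAV1 (116.7 FPKM), EGFR (29.8 FPKM) and FOXC1 (4.49 FPKM). TP63 (0.131 FPKM), CDH3 (0.105 FPKM) and ACTA2 (0.342 FPKM) did not, and MME was at 0. Of 12 luminal markers, 5 reached a mean of 1 FPKM at 0 Gy, led by XBP1 (28.6 FPKM), while the epithelial cadherin CDH1 stood at 0.324 FPKM.

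Most other genes of both keratin clusters were barely expressed. On chromosome 12 the other 21 keratin genes stayed under 1 FPKM and 16 of them were at 0 in every 0 Gy library. The highest of them was KRT79, at 0.0913 FPKM. The expressed genes lay at both ends of the 784 kb cluster, with KRT80, KRT7, KRT86 and KRT81 at one end and KRT8 and KRT18 at the other. On chromosome 17, 2 of 28 keratin genes reached 1 FPKM, KRT19 and KRT10.

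**Figure D3:**
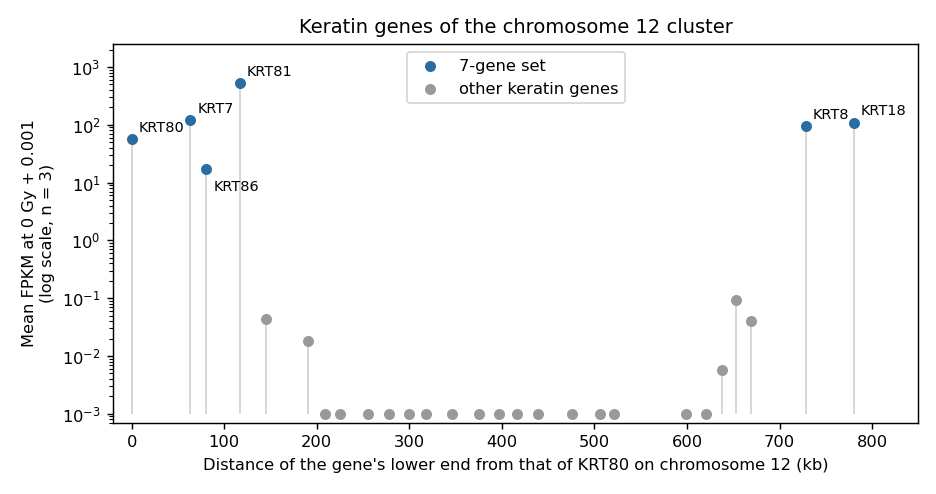
Mean FPKM at 0 Gy plus 0.001 (log axis, 3 libraries) of the 27 keratin genes of the chromosome 12 cluster against their distance from KRT80 in kb. The 6 described genes (blue) stand at the ends of the cluster between 16.9 and 522.6 FPKM, and the 21 others (grey) lie at or under 0.0913 FPKM.

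Next, the levels 24 h after 10 Gy were set beside those at 0 Gy. In KRT81, KRT7 and KRT19 every 10 Gy library lay below every 0 Gy library, and in KRT8, KRT18, KRT80 and KRT86 the groups overlapped. None of the 7 lay wholly higher after 10 Gy. Among the 12128 genes whose mean reached 1 FPKM, 32.8% lay wholly lower, 19.1% wholly higher and 51.9% either way. Since the set was chosen with these changes known, nothing is read from the 3 of 7 against that background. All 7 genes passed this filter on low values.

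KRT19 read 74.2, 75.3 and 75.4 FPKM at 10 Gy, below the lowest 0 Gy library at 86.8 FPKM. Its mean went from 90.9 ± 5.17 to 75.0 ± 0.657 FPKM (SD, n = 3 each), a ratio of 0.825, and its change was -0.27 ± 0.04 (SE) on the log2(FPKM + 1) scale. The 10 Gy libraries lay close together for this gene and the 0 Gy libraries did not. KRT7, the type II keratin of ducts, read 105.5, 105.8 and 104.7 FPKM at 10 Gy. Its mean went from 120.5 ± 9.10 to 105.3 ± 0.541 FPKM, a ratio of 0.874 and a log2 change of -0.19 ± 0.05. KRT81 went from 522.6 ± 74.6 to 432.4 ± 17.8 FPKM, a ratio of 0.827 and a log2 change of -0.26 ± 0.10. Without replicate 1 of 0 Gy this value for KRT81 was -0.15, so its size rested in part on 1 library. The same library moved KRT7 to -0.13.

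KRT8 read 103.7, 100.1 and 100.7 FPKM at 10 Gy, of which 2 lay inside the range at 0 Gy. Its ratio was 1.07 and its log2 change 0.10 ± 0.05, or 0.15 without replicate 1 of 0 Gy and 0.06 without replicate 3. KRT80 read 62.5, 57.8 and 60.3 FPKM at 10 Gy, with a ratio of 1.05 and a log2 change of 0.08 ± 0.04, or 0.04 without replicate 3 of 0 Gy and 0.05 without replicate 1 of 10 Gy. In both genes the means were higher after 10 Gy and the groups overlapped.

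KRT18 read 106.5, 104.4 and 109.3 FPKM at 10 Gy and had a log2 change of -0.03 ± 0.05, which was 0.02 without replicate 1 of 0 Gy. KRT86 read 16.6, 14.1 and 18.2 FPKM and had a log2 change of -0.05 ± 0.10, also 0.02 without that library. Without replicate 2 of 10 Gy the value for KRT86 was 0.04. For these 2 genes the difference was smaller than its standard error, and its sign turned when 1 of these libraries was left out.

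**Figure D4:**
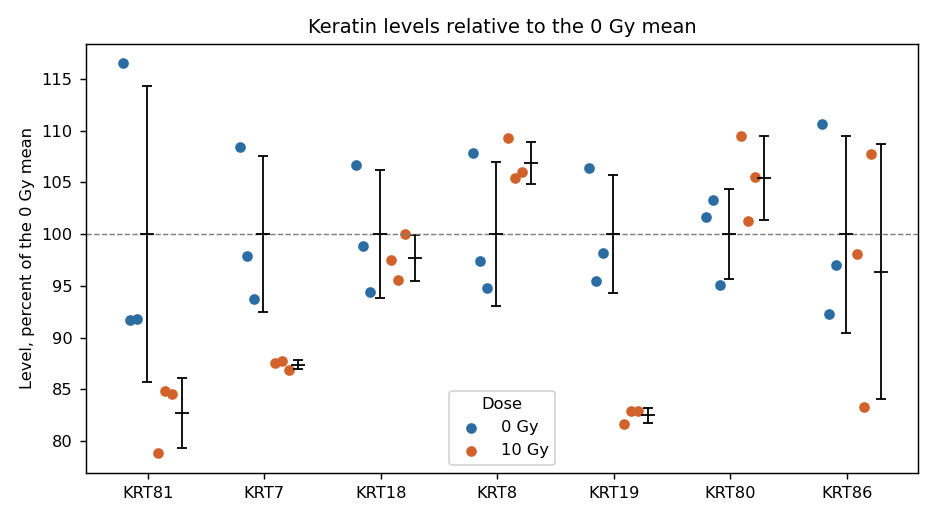
Level of each keratin in every library as a percent of its 0 Gy mean (dashed line at 100), with the mean and SD of each group of 3 as black marks. The 10 Gy libraries (orange) lie below the 0 Gy libraries (blue) in KRT81, KRT7 and KRT19 and among them in KRT18, KRT8, KRT80 and KRT86.

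The signs of the smaller changes also depended on how libraries are scaled. With values rescaled to a fixed sum (TPM), the median of all genes moved from -0.04 to 0.08 on the log2 scale, a shift of 0.12. On that scale the changes were -0.15 for KRT19, -0.14 for KRT81 and -0.06 for KRT7, and 0.23 for KRT8 and 0.20 for KRT80. KRT18 (0.10) and KRT86 (0.07) turned positive. Relative to the median gene the values are nearly fixed by construction, since TPM multiplies all genes of a library by 1 factor, and they are given only to place the keratins. KRT19 stood at -0.23 as deposited and -0.22 in TPM, KRT81 at -0.23 and -0.21, KRT7 at -0.15 and -0.14, KRT8 at 0.14 and 0.15, and KRT80 at 0.11 and 0.13. KRT18 stood within 0.02 of the median gene on both.

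Ratios within a library do not depend on its scaling, and one between the partners KRT18 and KRT8 was lower after 10 Gy. It read 1.14, 1.17 and 1.15 at 0 Gy and 1.03, 1.04 and 1.09 at 10 Gy, so the groups did not overlap. The means were 1.15 ± 0.0157 and 1.05 ± 0.0303 (SD, n = 3 each). Per kilobase of the main transcripts the level of the ratio was 0.649 at 0 Gy and 0.593 at 10 Gy, so which partner is more abundant depends on the length used, and the direction of the change, by construction, does not.

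The share of type I chains in the summed FPKM of the 7 genes was 18.8%, 20.3% and 20.3% at 0 Gy and 20.5%, 19.96% and 20.3% at 10 Gy. These groups overlapped. Leaving out KRT81, which lay outside the plan, the share was 40.9% ± 0.352 at 0 Gy and 39.1% ± 0.475 at 10 Gy (SD, n = 3 each). These groups did not overlap. The genes were chosen with their changes known, so nothing is read from this or from the KRT18 to KRT8 ratio. The sum itself went from 1012 ± 104 to 897.4 ± 15.1 FPKM, a ratio of 0.887. Without replicate 1 of 0 Gy the ratio was 0.942, and in TPM it was 0.97. The share of reads on the 7 genes overlapped between doses. KRT81 made up 51.5% ± 2.02 of the sum at 0 Gy and 48.2% ± 1.27 at 10 Gy. Per kilobase of the main transcripts its share was 32.3% ± 1.71 at 0 Gy and 29.2% ± 1.04 at 10 Gy, so its size depends on the length used. The KRT81 to KRT86 ratio was 32.6, 30.8 and 29.3 at 0 Gy and 24.9, 31.5 and 24.3 at 10 Gy, with overlap.

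Across the 6 libraries, Pearson's r was 0.954 between KRT7 and KRT81, 0.942 between KRT7 and KRT19 and 0.911 between KRT19 and KRT81. All 10 Gy libraries lay below all 0 Gy libraries in each of these genes, so a high r between them is largely built in. KRT18, whose groups overlapped, correlated at 0.748 with KRT81, 0.712 with KRT7, 0.503 with KRT19 and 0.723 with KRT86. KRT8 correlated at 0.719 with KRT80 and at 0.478 with KRT18. These are descriptions over 6 points that share their dose and their library scaling. The genes whose FPKM were most alike were FAU (r = 0.9995) and CLIC1 (0.9993) for KRT19, RPL22 (0.9994) and UMAD1 (0.9988) for KRT7, and RPL10A (0.9949) and COA4 (0.9933) for KRT81. For KRT8 they were FHL3 (0.9953) and SLC12A8 (0.9949), for KRT18 KCTD2 (0.9926) and ATP5F1C (0.9919), for KRT80 WDR61 (0.988) and GLIPR2 (0.984), and for KRT86 PI4KB (0.9952) and PRPF38A (0.9817).

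Other keratin genes were then tested with the rest of the genes, using limma on log2(FPKM + 1) and Benjamini-Hochberg adjustment. In this fit 35.6% of the 12128 genes had an adjusted p under 0.05, 11.9% higher and 23.7% lower after 10 Gy. Of 48 other keratins, 24 were at 0 in all libraries and 1 passed the filter. This was KRT10, a type I keratin of the suprabasal epidermis. It fell from 27.1 ± 1.26 to 19.9 ± 0.564 FPKM (SD, n = 3 each), a log2 change of -0.43 ± 0.04 (SE) with a limma adjusted p = 0.000772. KRT15, a keratin of basal cells, stood under the filter at 0.904 FPKM at 0 Gy and 0.952 FPKM at 10 Gy.

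Of 147 keratin pseudogenes 99 were at 0 in all libraries, 2 were tested and 0 were called by limma, with 0 at an unadjusted p under 0.05. KRT87P, which overlaps KRT7 by 32 exonic bases, read 14.3, 2.09 and 1.79 FPKM at 0 Gy and 2.33, 6.38 and 4.57 FPKM at 10 Gy. It varied more within the 0 Gy group than any of the 7 keratins, and replicate 1 again stood highest. KRT7-AS, an antisense gene with 282 exonic bases in common with KRT7, went from 2.04 to 2.94 FPKM and passed the test (log2 change 0.37, limma adjusted p = 0.0169, and 0.00903 to 0.0693 over the alternatives). Its mean was higher after 10 Gy, where that of KRT7 was lower.

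Proteins that anchor or bind keratin filaments changed in both directions. Of 29 such genes 24 were tested, and 5 rose, 8 fell and 11 did not pass. Over all genes tested 11.9% rose and 23.7% fell. The median log2 change of the list was -0.06 against -0.04 for all genes. PPL (periplakin, a cytolinker of filaments) rose from 4.35 to 8.17 FPKM, a log2 change of 0.78 with a limma adjusted p = 0.00026. JUP (plakoglobin, a desmosome plaque protein) rose from 18.6 to 26.6 FPKM (0.49, limma adjusted p = 0.00096). DSP (desmoplakin), which ties keratins to desmosomes, rose by 0.20 (limma adjusted p = 0.0181, and up to 0.0681 over the alternatives).

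The fallers of this list included other desmosome genes and the 14-3-3 genes, whose products bind phosphorylated keratins. SFN (14-3-3 sigma) fell from 62.8 to 41.4 FPKM, a log2 change of -0.59 with a limma adjusted p = 0.000445. PKP3 and PKP2, plakophilins of the desmosome, fell by 0.39 and 0.29 on the log2 scale (limma adjusted p = 0.00169 and 0.0023). PLEC, plectin, had 202.7 and 204.9 FPKM and a log2 change of 0.02 (limma adjusted p = 0.818). In TPM the split of this list was 8 higher and 4 lower.

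The other intermediate filament genes were led by vimentin. VIM, the filament protein of mesenchymal cells, stood at 300.8 ± 9.54 FPKM at 0 Gy. This was 0.299 times the sum of the 7 keratins in FPKM, a ratio not computed on another gene length. VIM fell to 251.2 ± 3.88 FPKM after 10 Gy (log2 change -0.26, limma adjusted p = 0.00285). Of 15 such genes 7 were tested, and 0 rose and 3 fell, beside 11.9% and 23.7% of all genes tested. The other two were the nuclear lamins LMNB1 (57.1 to 42.5 FPKM, limma adjusted p = 0.000593) and LMNB2 (136.3 to 119.4 FPKM, limma adjusted p = 0.00345, and 0.162 in TPM). LMNA had 171.6 FPKM at both doses (log2 change 0.00, limma adjusted p = 0.981, and 0.13 with an adjusted p = 0.0252 in TPM), and the split in TPM was 2 higher and 2 lower.

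Of 20 transcription factors known to act on keratin genes in epithelia, 17 were tested, and 1 rose and 7 fell. Over all genes tested 11.9% rose and 23.7% fell. The median log2 change of the list was -0.11 against -0.04 for all genes. At a minimum mean of 5 FPKM, 2 rose and 7 fell of 14 tested. In that fit 874 rose and 2734 fell of 7262 genes, with a median of -0.08. The fallers FOSL1 (270.8 to 195.9 FPKM, limma adjusted p = 0.000593) and JUN (56.0 to 42.6 FPKM, limma adjusted p = 0.000965) are AP-1 subunits. ETS1 fell from 48.2 to 37.1 FPKM (limma adjusted p = 0.000971), and SP1, which binds GC boxes, from 18.8 to 14.9 FPKM (limma adjusted p = 0.00366). ELF3, an epithelial ETS factor, had 0.743 FPKM at 0 Gy and 1.39 FPKM at 10 Gy (limma adjusted p = 0.00311). It is the 1 riser of this list and passed the filter on low values only through its 10 Gy level, so its call is no support for a rise, and without replicate 2 of 10 Gy it was not tested. In TPM the split was 4 higher and 6 lower. Their part in the keratin levels was not tested.

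**Figure D5:**
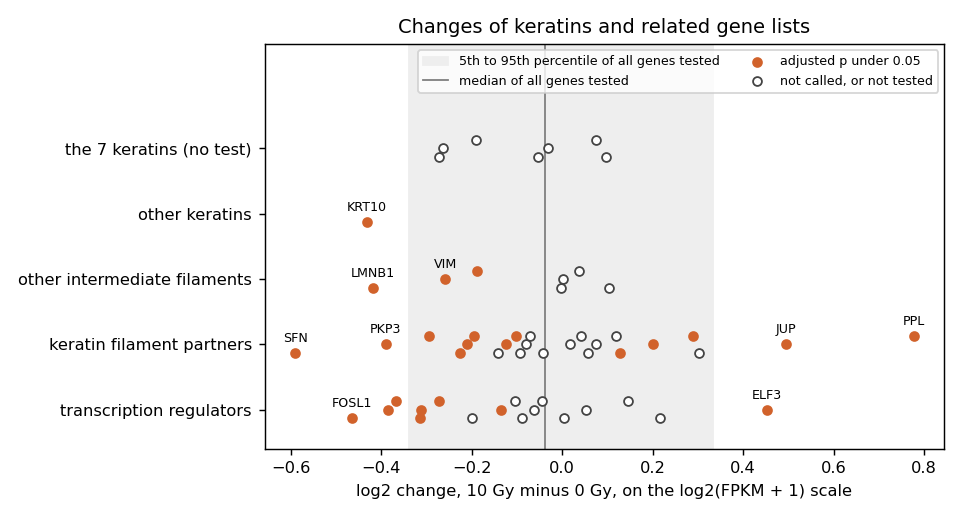
Log2 change after 10 Gy of every tested gene of the keratin set and of 4 related lists (points in rows, filled where the limma adjusted p is under 0.05, the 7 keratins left unfilled because they were not tested). The grey band from -0.34 to 0.33 holds the middle of all genes (5th to 95th percentile) and the line marks their median. The 7 keratins lie inside the band. PPL, JUP, SFN, PKP3, KRT10, LMNB1, FOSL1, JUN, ETS1 and ELF3 lie outside it.

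A RefSeq promoter (GRCh38.p14, 250 bases before to 50 after the start) was at hand for 1 of the 7 genes, KRT8, at chr12:52926420-52926719 on the minus strand. Its start lay 19851 bases upstream of the main transcript's start, with 1 annotated transcript starting within 50 bases of it, so it is not the start of the main transcript. The window held 1 ETS core (CGGAAG, minus strand, in 19.5% of all 35116 promoters) and no AP-1 site (TGANTCA, 7.7%), GC box (GGGCGG, 45.0%) or TATA box (TATAAA, 11.5%), each searched on both strands.

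Markers of other cell types were low, and some moved with the dose. The summed FPKM of 4 endothelial markers was 2.16 to 2.49 at 0 Gy and 2.82 to 3.15 at 10 Gy, carried by PECAM1 (1.23 to 1.94 FPKM, limma adjusted p = 0.00265). That of 6 fibroblast markers was 3.00 to 3.12 and 4.08 to 4.40, carried by COL1A1 (3.03 to 4.19 FPKM, limma adjusted p = 0.00173). That of 5 leukocyte markers was 1.42 to 2.60 and 2.08 to 3.12, with 2 of the 5 at 0 in all libraries. Of the breast lists, CAV1 fell among the basal markers (limma adjusted p = 0.0015), and XBP1 fell and TFF1 rose (1.08 to 1.92 FPKM, limma adjusted p = 0.0466, and up to 0.166 over the alternatives) among 5 luminal markers. The adjusted p of XBP1 was 0.00787, and 0.0672 in TPM. Their part in the keratin values was not tested.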

How the data were processed

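PolyA RNA of MDA-MB-231 cells was used, from 3 libraries at 0 Gy and 3 at 24 h after 10 Gy, grouped by the treatment in the labels. The authors deposited FPKM values per gene, and the submitters' processing notes name HISAT2 and GRCh38. The counting program, its strand setting and its handling of reads that match several genes are not given in the sources used here. Gene identifiers and lengths are those of GENCODE 29, and transcript sequences were read from that release.

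The 7 genes and all gene lists were chosen with earlier results of these data known. The 7 genes were not tested. For other genes, log2(FPKM + 1) was fitted by dose in limma 3.58.1 (R 4.3.3), the eBayes step following an intensity trend. The fit held 12128 genes, those averaging 1 FPKM or more, and genes were called at a Benjamini-Hochberg adjusted p under 0.05. Such fold changes understate those of low genes. The procedure was also run on simulated counts with the same small spread in all genes and libraries. That setting lacked the deviation of replicate 1 of 0 Gy, so the run cannot vouch for the calls here. Beside the 7, the text names other keratins averaging 1 FPKM, at most 5 called genes a list by size of change, VIM, PLEC, DSP, LMNA, KRT5, KRT14 and KRT17, the most correlated pair of genes for each of the 7, and overlapping genes. KRT6A, KRT6B, KRT6C, KRT15, KRT79, EGFR, FOXC1, TP63, CDH3, ACTA2, MME and CDH1 were named after their values were seen. Whole reads, recovered from FPKM, gene length and depth, gave the depths, read numbers, read shares, chi-square values and levels per main transcript. No count test was run on them. Alternatives covered the pseudocount, the filter, the scaling, the replicate block, the trend, protein-coding genes alone and each library left out. Levels per main transcript, computed in Python 3.11.15, were added after the data were seen, and the type I share without KRT81 lay outside the plan. One basal marker is not reported here.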

Additional observations from a re-analysis of the deposited data

How the results depend on the processing

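Over all genes, limma called 1443 higher and 2874 lower after 10 Gy. The higher calls numbered 874 at a minimum mean of 5 FPKM and 3113 in TPM, and the lower calls 1815 with no filter and 1066 in TPM. With 1 library left out, all calls numbered 2651 to 3975, higher calls 846 to 1388 and lower calls 1805 to 2621. The filament partners had 13 calls, 8 with no filter, and 6 to 15 with 1 library left out, the fewest without replicate 2 of 10 Gy (6) and replicate 1 of 10 Gy (7). The luminal markers had 2 calls, and 1 with a pseudocount of 0.1, with no filter, at a minimum of 5 FPKM, with the replicate block and without a trend, and 1 to 2 with 1 library left out. The call lost was that of TFF1.

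In TPM the log2 changes were -0.063 for KRT7, 0.23 for KRT8, 0.10 for KRT18, -0.15 for KRT19 and 0.20 for KRT80. Per main transcript the type I share was 23.5% and the KRT18 to KRT8 ratio 0.649. Values under the test's threshold turned sign for LMNA, which ranged from -0.026 to 0.045 with 1 library left out, and PLEC, which ranged from -0.014 to 0.055. With 1 library left out, the log2 changes of KRT7 ranged from -0.24 to -0.13, of KRT19 from -0.31 to -0.23, of KRT81 from -0.32 to -0.15, of KRT8 from 0.06 to 0.15, of KRT80 from 0.04 to 0.10, of KRT18 from -0.07 to 0.02 and of KRT86 from -0.13 to 0.04.

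Deviations of same-numbered libraries correlated at -0.04, -0.035 and -0.101, and those of different-numbered libraries at -0.052 to 0.094. No shared deviation by replicate number was thus seen, which cannot show whether the cultures were paired. The fit with the replicate block called 3503 genes. Apart from the luminal list its counts stayed within 1.5 times. At 3 libraries a group, the design limits what can be called at small changes, and KRT86 rests on the fewest reads of the 7 keratins.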
